A study of Mus musculus with 32 samples.

Results

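The aminoacyl-tRNA synthetases were followed across epithelial cells, their hnRNP E1 knockdown derivative, 2 ribosomal pools and an immunoprecipitation. They were defined as 36 genes, 20 encoding cytosolic enzymes and 16 encoding mitochondrial enzymes. A probe set of the Affymetrix Mouse Genome array annotated to a single member stood for each gene, and where there were several the one with the highest mean was taken. Such a probe set was found for 35 of the 36 genes, all but Dars (aspartate). Dars has no array values here and enters only the promoter counts. The mitochondrial methionine enzyme Mars2 did not pass the filter on low values, so 34 members (19 cytosolic, 15 mitochondrial) were tested among 25432 probe sets that represented 12600 named genes. Mars carries the symbol Mars1 in the annotation.

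NMuMG is a line of normal mouse mammary gland epithelial cells, and E1KD is a derivative of it in which the RNA-binding protein hnRNP E1 (gene Pcbp1) was silenced and which is in constitutive epithelial-mesenchymal transition (EMT). Whether E1KD is 1 clone is not given in the sources used here. Both lines were left untreated or received TGFβ2 at 5 ng/ml for 24 h, and each of these conditions gave total RNA, a monosomal pool (the ribosomal subunit and single-ribosome parts of a sucrose gradient) and a polysomal pool. Cytosolic extracts of NMuMG cells with and without TGFβ were also immunoprecipitated with an α-hnRNP E1 antibody or with IgG, and the labels of those arrays state no treatment time. Each of the 16 groups held 2 arrays, 32 in all, described as biological replicates, and each value below is a log2 RMA signal, in which a step of 1 is a doubling.

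A synthetase joins 1 amino acid to its matching tRNAs, and the charged tRNA is what the ribosome uses. Cytosolic and mitochondrial ribosomes are served by separate enzymes for most amino acids, all encoded in the nucleus, whereas Gars (glycine) and Kars (lysine) supply both compartments from 1 gene. Several cytosolic enzymes sit in a multisynthetase complex held by the scaffolds Aimp1, Aimp2 and Eef1e1. When uncharged tRNA accumulates, the kinase Gcn2 (Eif2ak4) phosphorylates eIF2α, the transcription factor ATF4 is made, and ATF4 raises many cytosolic synthetases together with amino acid transporters and enzymes of amino acid synthesis.

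The sites through which ATF4 is known to act read TGATGNAA, and these are shown first because the cytosolic and mitochondrial members differ in them. RefSeq promoters of GRCm38.p6, running from 250 bases before to 50 bases after the transcription start, were used for 27 members. On either strand TGATGNAA was present in 5 of 13 cytosolic members (Aars, Gars, Iars, Tars and Yars) and in 0 of 14 mitochondrial members, against 3.97% of all 32851 promoters. The E-box CACGTG, a palindrome that Myc and related factors bind, was present in 4 cytosolic members (Aars, Iars, Tars and Farsb) and in Ears2, against 7.15% of all promoters. The NRF1 core GCGCATGC, common in genes for mitochondrial proteins, was present in Rars2, Vars2 and Wars2, in 0 of the 13 cytosolic members, and in 2.71% of all promoters. The 3 motifs did not overlap in these windows. A match is a description of letters and not a measured binding site. The 30-base windows below are written along the gene's own strand, with the TGATGNAA match on either strand in capitals, and not every match is printed.
Aars, 9 bases after the start, chr8:111033840-111033869, plus strand: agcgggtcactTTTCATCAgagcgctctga
Gars, 30 bases before the start, chr6:55037960-55037989, plus strand: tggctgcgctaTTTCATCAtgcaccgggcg
Iars, 7 bases after the start, chr13:49682126-49682155, plus strand: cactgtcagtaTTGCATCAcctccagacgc
Tars, 15 bases before the start, chr15:11399655-11399684, minus strand: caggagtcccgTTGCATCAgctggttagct
Yars, 3 bases after the start, chr4:129189895-129189924, plus strand: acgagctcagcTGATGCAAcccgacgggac
For the mitochondrial members the windows show the GCGCATGC match in capitals, on either strand.
Rars2, 51 bases before the start, chr4:34614895-34614924, plus strand: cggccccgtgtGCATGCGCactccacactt
Vars2, 46 bases before the start, chr17:35667620-35667649, minus strand: gagtcttttacGCATGCGCctgcgtgtccc
Vars2, 20 bases before the start, chr17:35667594-35667623, minus strand: tccccgcccacGCATGCGCgcgcacctcgc
Wars2, 64 bases before the start, chr3:99141015-99141044, plus strand: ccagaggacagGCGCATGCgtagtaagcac

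Pcbp1 ran from 13.08 to 13.30 over the 12 NMuMG fraction and total RNA arrays and from 8.44 to 10.86 over the 12 E1KD arrays, so the 2 lines did not overlap. Of the 8 epithelial markers 7 passed the filter on low values, with Krt8 and Krt18 at 13.85 or above in all 24 of these arrays and Epcam only at 5.88 to 7.58, and Cldn7 did not pass. Of the leukocyte genes Cd14 (8.85 to 11.21) and Cd68 (5.53 to 9.46) passed and Ptprc did not, and neither endothelial gene, Pecam1 or Cdh5, passed. The 2 untreated NMuMG monosomal arrays stood apart in the difference between the 3′ and 5′ control probe sets of Gapdh, a sign of RNA integrity, which was 0.45 and 0.51 there and -0.04 to 0.13 in the other 22 fraction and total RNA arrays. The same difference for Actb, 0.69 and 0.66, lay within the range of the other 22 arrays (0.39 to 0.81). Titles and descriptions of the α-hnRNP E1 arrays disagreed about which array of the second replicate was TGFβ-treated. Groups follow the titles, and the exchanged reading is given beside the results it touches. Replicates of 1 line come from cultures of that line. The p-values measure the spread between such replicates, pooled over all groups fitted together.

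TGFβ changed no synthetase detectably in the total RNA of NMuMG cells. The 34 members lay between -0.33 (Vars2) and 0.26 (Nars2), with a median of 0.02 for the cytosolic enzymes and -0.07 for the mitochondrial enzymes. With limma and Benjamini-Hochberg adjustment over all probe sets, 0 of 34 passed in either direction and 2 had an unadjusted p under 0.05, against 3.0% of all probe sets called higher and 2.43% called lower. The mesenchymal marker Fn1 (fibronectin) rose in the same arrays by 1.85 ± 0.11 (SE), so the treatment itself was visible. The mesenchymal markers were split, with Zeb1 also higher (0.59 ± 0.10), S100a4 lower (-0.71 ± 0.17) and Vim, Cdh2 and Zeb2 not past the threshold. The ATF4 list moved little, with 3 of 18 genes higher (Atf3 at 0.77 ± 0.12, Ddit4 at 0.75 ± 0.12 and Nupr1 at 0.44 ± 0.09) and 0 lower.

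Untreated E1KD cells held more of several cytosolic synthetase mRNAs than untreated NMuMG cells. In total RNA 8 of 19 cytosolic members were higher and 0 lower, and 3 of 15 mitochondrial members were higher and 3 lower. Over all probe sets 15.8% were called higher and 13.5% lower, and with 1 probe set per gene 17.8% and 15.1%. The member medians were 0.26 for the cytosolic and 0.24 for the mitochondrial enzymes, beside -0.02 over all probe sets. In cultures measured in bulk, fewer cells of a kind and less RNA per cell cannot be told apart. Marker genes moved with the line as well, with 3 of 7 epithelial markers lower, 5 of 6 mesenchymal markers higher and, of the leukocyte genes, Cd68 higher and Cd14 lower, and their part in the synthetase values was not tested.

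Wars, the tryptophan enzyme, read 9.70 and 9.73 in NMuMG and 10.82 and 10.89 in E1KD, a rise of 1.14 ± 0.11 or 2.2-fold (adjusted p = 5.66e-07). Yars (tyrosine) read 8.78 and 8.79 in NMuMG and 9.71 and 9.85 in E1KD, a rise of 1.00 ± 0.11 (adjusted p = 4.08e-06). For both enzymes the arrays of the 2 lines were far apart and the replicates close. Kars read 11.08 and 11.13 against 11.80 and 11.77 (0.68 ± 0.11), and Aars (alanine) read 11.19 and 11.25 against 11.82 and 11.93 (0.66 ± 0.11). Tars (threonine) read 11.85 and 11.91 against 12.48 and 12.51 (0.62 ± 0.19). Farsa, the catalytic α subunit of the phenylalanine enzyme, rose by 0.59 ± 0.11 while its partner subunit Farsb gave 0.12 ± 0.19 and did not pass (adjusted p = 0.732). Eprs, the bifunctional glutamate and proline enzyme, and Lars (leucine) rose by 0.58 ± 0.18 and 0.45 ± 0.15. The cytosolic enzymes that did not pass ran from -0.18 for Mars (methionine) to 0.51 for Hars (histidine).

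**Figure D1:**
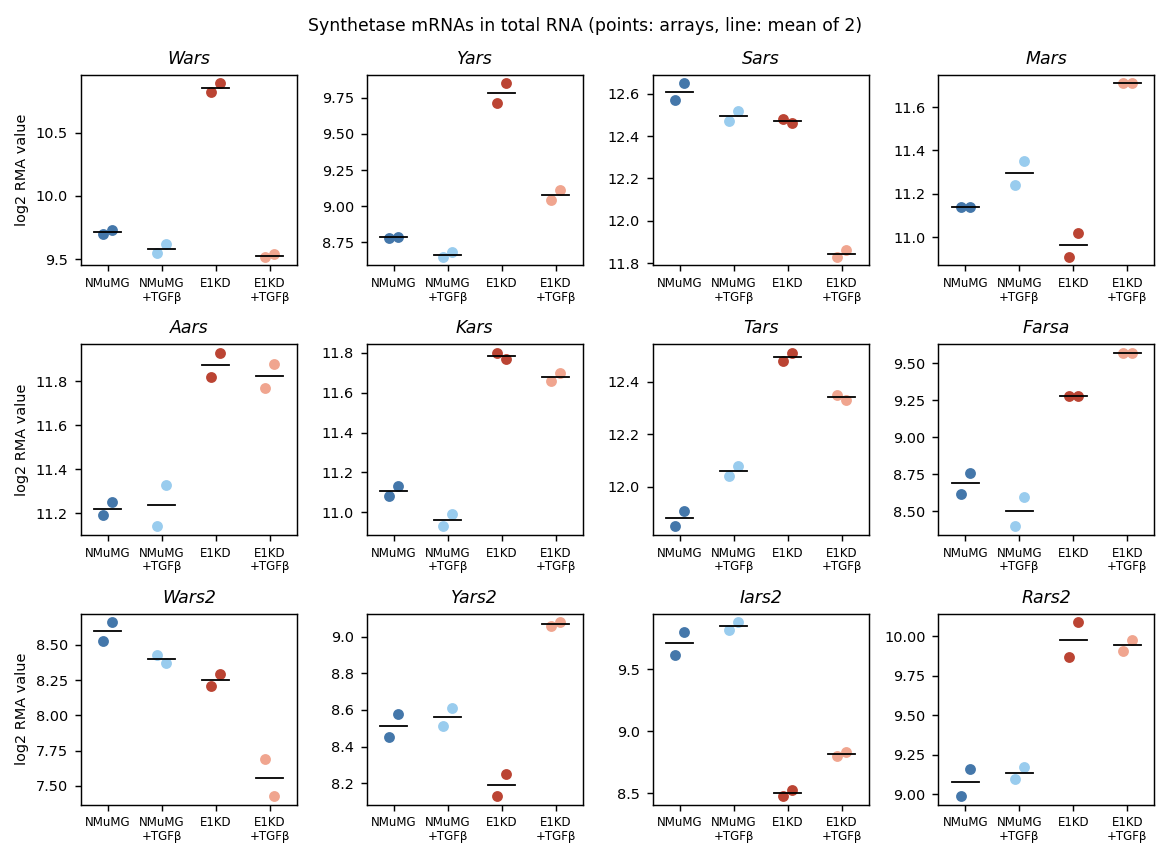
Log2 RMA values of 12 synthetases in total RNA for untreated and TGFβ-treated NMuMG and E1KD cells. Each point is 1 array and each line is the mean of 2. Wars and Yars are highest in untreated E1KD, at 10.82 and 10.89 for Wars, and Yars stays above the NMuMG arrays after TGFβ. Iars2 is lower in all 4 E1KD arrays than in the 4 NMuMG arrays.

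The mitochondrial enzymes moved in both directions. Rars2 (arginine) read 8.99 and 9.16 in NMuMG and 9.87 and 10.09 in E1KD, a rise of 0.91 ± 0.18 (adjusted p = 0.00110). Iars2 (isoleucine) fell from 9.62 and 9.80 to 8.48 and 8.53, a difference of -1.21 ± 0.26 (adjusted p = 0.00173) and the largest fall among the members. Vars2 (valine) fell from 8.0 and 7.91 to 7.24 and 7.23 (-0.72 ± 0.15). Smaller rises were found for Ears2 (glutamate, 0.40 ± 0.14) and Tars2 (threonine, 0.35 ± 0.12). Wars2 fell by 0.35 on the log2 scale (SE 0.12, adjusted p = 0.0432) while its cytosolic counterpart Wars had the largest rise, and this was the 1 pair of 13 cytosolic and mitochondrial counterparts that passed in opposite directions. In 2 pairs both passed the same way (Eprs with Ears2, Tars with Tars2), in 6 pairs 1 enzyme passed, and in 4 neither did. Hars and Hars2, neighbouring genes, gave 0.51 ± 0.22 and 0.00 ± 0.24, and neither passed.

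Among the 5 cytosolic members with a TGATGNAA match in the windows printed above 3 were higher in E1KD (Aars, Tars and Yars), and among the 7 tested cytosolic members whose promoter had no match 3 were higher as well (Eprs, Kars and Farsa). Of the 7 tested enzymes of the multisynthetase complex, 3 were higher and 0 lower, while 1 scaffold, Aimp2, was lower by 0.27 on the log2 scale. Enzymes of catalytic class I were higher in 3 of 9 cases and those of class II in 4 of 9. The ATF4 list had 11 of 18 genes higher and 2 lower. Those with the largest values were Vldlr (1.74 ± 0.10), Ppp1r15a (1.63 ± 0.11), Atf3 (1.58 ± 0.12) and Nupr1 (1.09 ± 0.09). Atf4 mRNA itself gave 0.17 ± 0.08 and did not pass. Enzymes of amino acid synthesis were higher in 4 of 13 cases and lower in 3. Amino acid transporters were higher in 4 of 12 cases, led by Slc38a1 (2.39 ± 0.19) and Slc7a5 (1.65 ± 0.10), and lower in 2. These counts stand beside 17.8% of all genes called higher and 15.1% lower, with 1 probe set per gene, and were not tested against those shares.

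The count of 14 synthetases rested on all 4 arrays. It fell to 8 without either E1KD array or without the first NMuMG array and to 9 without the second NMuMG array, each time with 2 lower. Wars, Yars, Iars2 and Rars2 passed in the same direction in each of these.

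**Figure D2:**
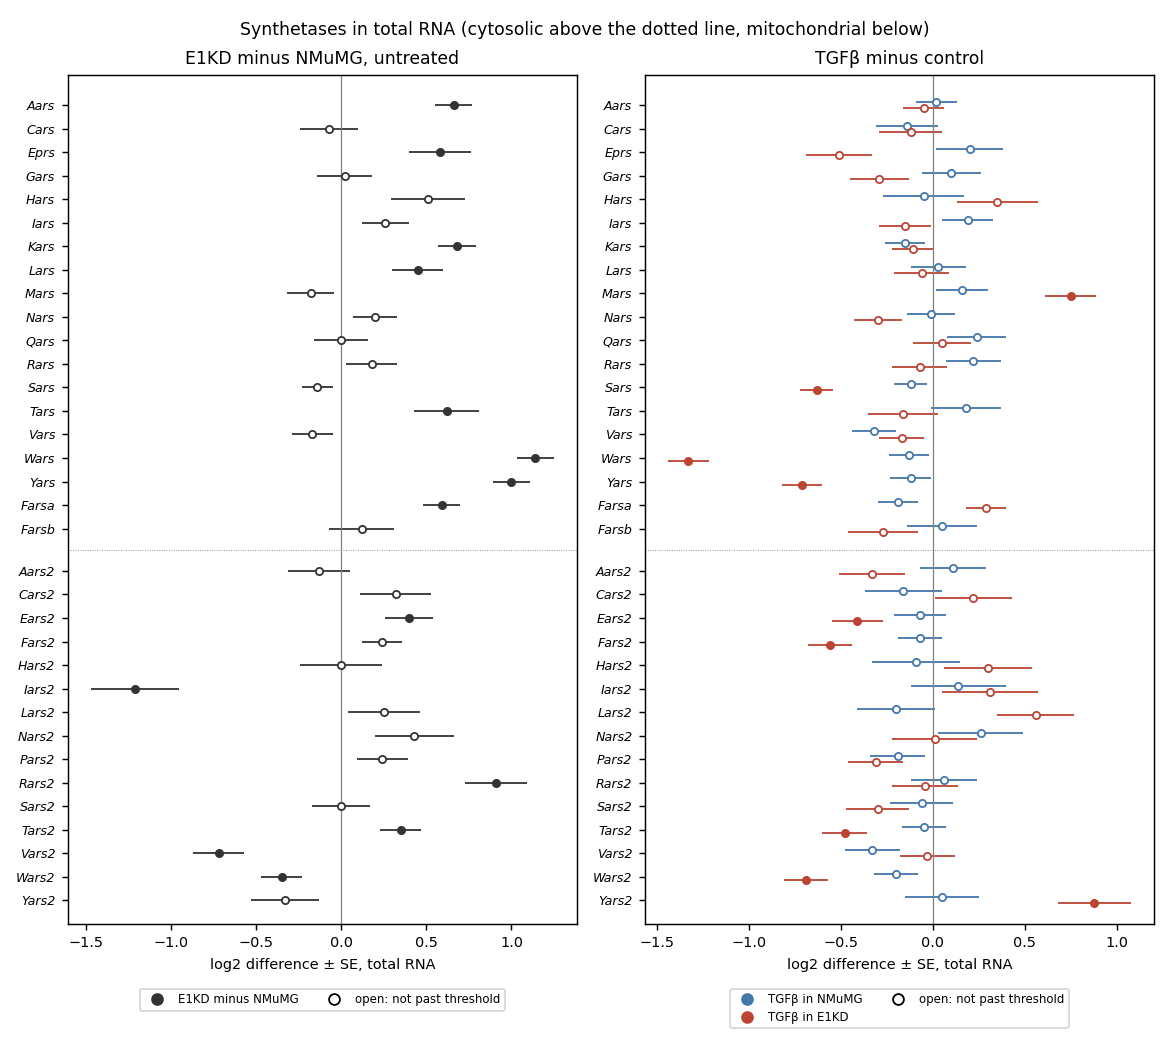
Log2 differences in total RNA ± SE for the 34 tested synthetases, with the 19 cytosolic members above the dotted line and the 15 mitochondrial members below. The left panel compares untreated E1KD with untreated NMuMG and the right panel gives TGFβ minus control in each line. Filled points passed the adjusted threshold. The left panel has 11 filled points on the right side and 3 on the left, and the right panel has 9 filled points for E1KD and 0 for NMuMG.

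In E1KD cells TGFβ lowered some of the same enzymes that were high in the untreated line. In total RNA 3 of 19 cytosolic members were lower and 1 higher, and 4 of 15 mitochondrial members were lower and 1 higher, beside 9.75% of all probe sets called lower and 11.4% called higher. Wars fell from 10.82 and 10.89 to 9.52 and 9.54, a change of -1.33 ± 0.11 or 2.51-fold (adjusted p = 3.25e-07), and the treated arrays lay below those of untreated NMuMG (9.70 and 9.73). Yars fell from 9.71 and 9.85 to 9.04 and 9.11 (-0.71 ± 0.11), and Sars (serine) fell from 12.48 and 12.46 to 11.83 and 11.86 (-0.63 ± 0.09). Yars stayed above its NMuMG arrays, whereas Sars, which did not differ detectably between the untreated lines, dropped below all of them. These changes and the differences between the untreated lines use the same 2 untreated E1KD arrays, so the high untreated values enter both.

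The other cytosolic member past the threshold moved up. Mars rose from 10.91 and 11.02 to 11.71 in both arrays (0.75 ± 0.14, adjusted p = 0.000942). Of the mitochondrial enzymes Yars2 (tyrosine) rose from 8.13 and 8.25 to 9.06 and 9.08 (0.88 ± 0.20), the opposite of cytosolic Yars. Wars2 fell from 8.21 and 8.29 to 7.69 and 7.43 (-0.69 ± 0.12), the same direction as Wars. Fars2 (phenylalanine), Tars2 and Ears2 fell by 0.56, 0.48 and 0.41 on the log2 scale. The remaining members ran from -0.51 (Eprs) to 0.56 (Lars2).

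The ATF4 list fell in the same arrays in 14 of 18 genes and rose in 2. Ddit3, which encodes CHOP, fell by 3.67 on the log2 scale (SE 0.10), Atf3 by 3.07 (SE 0.12), Ppp1r15a by 2.81 (SE 0.11) and Stc2 by 1.93 (SE 0.17), and Atf4 itself by 0.90 (SE 0.08). Vldlr and Ddit4 rose by 0.39 ± 0.10 and 0.59 ± 0.12. Enzymes of amino acid synthesis were lower in 9 of 13 cases and higher in 0, with Cth at -0.89 ± 0.19 and Gpt2 at -0.82 ± 0.15, while Asns (asparagine synthetase), a textbook ATF4 target, gave -0.09 ± 0.11 and did not pass. Transporters were lower in 5 of 12 cases, led by Slc6a9 (-2.0 ± 0.13) and Slc3a2 (-1.06 ± 0.10), and higher in 1 (Slc7a6, 0.95 ± 0.17). For TGFβ in E1KD 0 of the 4 eIF2α kinases passed in the limma fit and 0 had an unadjusted p under 0.05, with values from -0.24 (Eif2ak3) to 0.58 (Eif2ak2). Of the scaffolds, Aimp1 fell by 0.45 and Aimp2 rose by 0.37 on the log2 scale. The list counts stand beside 11.8% of all genes called higher and 11.4% lower, with 1 probe set per gene, and were not tested against those shares.

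The response to TGFβ was tested against that of NMuMG with an interaction term. It differed for 3 cytosolic members, all lower in E1KD, and for 0 mitochondrial members, of which 5 had an unadjusted p under 0.05 in limma, against 5.69% of all probe sets called lower and 5.76% called higher. The difference was -1.20 ± 0.15 for Wars (adjusted p = 7.44e-05), -0.59 ± 0.16 for Yars (adjusted p = 0.0248) and -0.51 ± 0.13 for Sars (adjusted p = 0.0156). The ATF4 list differed in 12 of 18 genes, all lower. For Mars and Yars2, which rose in E1KD, the difference from NMuMG was 0.59 ± 0.19 and 0.84 ± 0.29 and did not pass (adjusted p = 0.0622 and 0.0745). The count of 3 was sensitive to the fit, and it was 1 (Wars) without the first TGFβ-treated E1KD array, without the first untreated NMuMG array or without the second TGFβ-treated NMuMG array, and 15 when the total RNA arrays were fitted alone. Wars passed in all of these. With quantile normalization 2 members were higher and 6 lower.

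The pools showed how the members were spread between monosomes and polysomes. The arrays were normalized to a common scale, so a value describes the make-up of a pool and not an amount per cell. In untreated NMuMG cells 10 members were higher in the polysomal than in the monosomal pool (6 of 19 cytosolic, 4 of 15 mitochondrial) and 15 were lower (8 and 7), beside 29.3% of all probe sets higher and 41.9% lower. Counted with 1 probe set per gene, 30.3% of all genes were higher and 44.2% lower, so the members were split much as all genes were. With quantile normalization of the arrays the members split 16 higher and 12 lower. Scaling to Actb and Gapdh gave 11 and 12, so the balance of directions is not settled. In untreated E1KD cells 8 were higher (7 cytosolic, 1 mitochondrial) and 16 lower (7 and 9), beside 16.8% and 18.2% of all probe sets. With 1 probe set per gene these shares were 17.0% and 22.3%.

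Within the set, the order of the members was wide. Hars read 10.88 and 11.20 in the monosomal pool of NMuMG and 8.53 and 7.77 in the polysomal pool, a difference of -2.89 ± 0.22. Nars2 (asparagine) and Yars2 followed at -2.47 ± 0.23 and -2.46 ± 0.20, and Rars, Iars2 and Rars2 at -2.06 ± 0.15, -1.78 ± 0.26 and -1.58 ± 0.18. On the polysomal side stood Wars2, which read 8.01 and 8.10 in monosomes and 10.00 and 9.76 in polysomes (1.83 ± 0.12). Fars2 (1.46 ± 0.12), Qars (glutamine, 1.44 ± 0.16), Sars (1.11 ± 0.09), Kars (1.08 ± 0.11) and Vars (0.62 ± 0.12) lay on the same side. Enzymes of both compartments and both catalytic classes were present at each end.

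In E1KD several of these positions were different. Tars, lower in polysomes in NMuMG (-0.92 ± 0.19), was higher in E1KD (0.99 ± 0.19), and so was Farsb (-0.68 ± 0.19 against 0.84 ± 0.19). Qars, Wars, Vars and Ears2 went the other way, and Ears2 gave 0.43 ± 0.14 in NMuMG and -1.56 ± 0.14 in E1KD. Eprs led the polysomal side in E1KD, reading 11.23 and 11.26 in monosomes and 12.41 and 12.47 in polysomes (1.20 ± 0.18). Wars2 (0.72 ± 0.12), Iars (isoleucine, 0.67 ± 0.14) and Kars (0.60 ± 0.11) were on that side as well. Tars2 was the lowest, reading 10.24 and 10.21 in monosomes and 8.69 and 8.61 in polysomes (-1.58 ± 0.12). Nars2 (-1.23 ± 0.23) and Cars2 (cysteine, -1.01 ± 0.21) were low too. The difference between the untreated lines in this measure was not tested. Its NMuMG side uses the untreated monosomal arrays with the high Gapdh difference described above. For Qars the probe set used gave -0.88 ± 0.16 in E1KD, and the other two gave -0.65 ± 0.11 and 0.36 ± 0.13, so its position there is uncertain. Against total RNA in place of the monosomal pool, Farsa turned from -1.38 ± 0.11 to 0.69 ± 0.11 in E1KD. With that reference Tars was lower in both lines (-3.14 ± 0.19 in NMuMG, -0.67 ± 0.19 in E1KD). Qars (1.64 ± 0.16 and 0.63 ± 0.16) and Vars (0.35 ± 0.12 and 0.58 ± 0.12) were higher in both. Farsb gave -1.67 ± 0.19 and -0.25 ± 0.19 and Ears2 0.60 ± 0.14 and -0.15 ± 0.14, neither passing in E1KD. Wars was lower in E1KD alone (-0.77 ± 0.11). In E1KD Eprs did not pass (-0.19 ± 0.18) and Iars was lower (-0.78 ± 0.14), while Wars2 (0.36) and Kars (0.50) stayed higher. The count of 24 fell to 15 without the second untreated E1KD monosomal array.

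**Figure D3:**
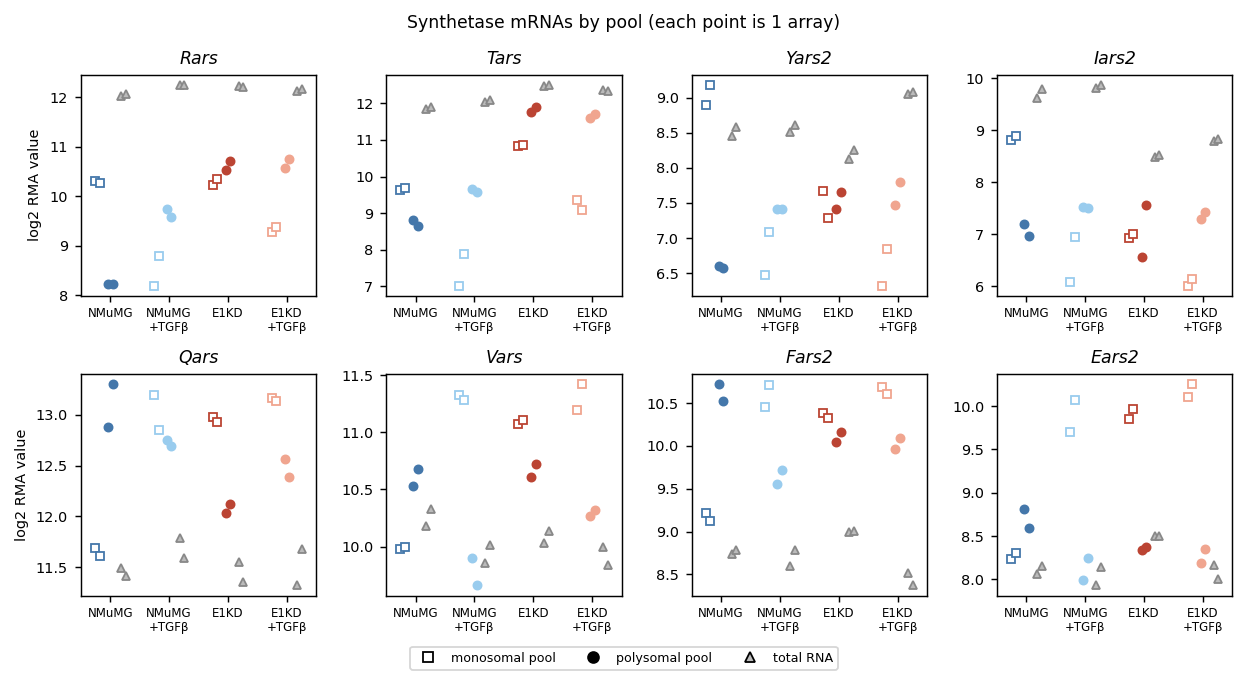
Log2 RMA values of 8 synthetases in the monosomal pool (open squares), the polysomal pool (filled circles) and total RNA (grey triangles) for each line and treatment, with each point being 1 array. For Rars the 2 monosomal NMuMG arrays fell from 10.30 and 10.27 to 8.19 and 8.80 with TGFβ and the polysomal arrays rose from 8.22 and 8.23 to 9.74 and 9.57, while total RNA moved from 12.02 and 12.07 to 12.26 in both.

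With TGFβ the polysomal minus monosomal difference of nearly every member changed in NMuMG cells, in both directions. The polysome shift, the change with TGFβ of the polysomal minus monosomal difference, passed for 33 of 34 members, with 17 higher (11 cytosolic, 6 mitochondrial) and 16 lower (7 and 9), and with Kars (0.09 ± 0.15) as the exception. Most probe sets on the array did the same, 40.1% being called higher and 30.3% lower. The cytosolic median was 0.79 and the mitochondrial median -0.86, beside 0.09 over all probe sets. With quantile normalization the split was 12 higher and 16 lower.

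Rars read 10.30 and 10.27 in monosomes and 8.22 and 8.23 in polysomes before TGFβ, and 8.19 and 8.80 in monosomes and 9.74 and 9.57 in polysomes after it, a shift of 3.22 ± 0.21 (adjusted p = 4.13e-09). Yars2 shifted by 3.09 ± 0.29, with monosomal values going from 8.90 and 9.19 to 6.47 and 7.09. Tars shifted by 3.08 ± 0.26, and its monosomal values went from 9.62 and 9.70 to 7.02 and 7.89. In these 3 the pools exchanged their order. Iars2 (2.78 ± 0.36), Hars (2.23 ± 0.32), Farsb (2.03 ± 0.27) and Nars2 (1.98 ± 0.32) were next. Lars2 gave 1.86 ± 0.29, but a second probe set for it gave -1.02 ± 0.27, and its direction is unsettled.

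Fars2 had the lowest shift, reading 9.22 and 9.12 in monosomes and 10.72 and 10.53 in polysomes before TGFβ and 10.45 and 10.71 in monosomes and 9.56 and 9.72 in polysomes after it (-2.40 ± 0.16, adjusted p = 6.89e-09). Ears2 shifted by -2.20 ± 0.19 and Vars by -2.14 ± 0.16. Qars (-1.75 ± 0.22), Farsa (-1.71 ± 0.15) and Cars2 (-1.52 ± 0.30) had values below 0 as well, as did Pars2 (proline, -1.37 ± 0.21). Subunits of a single enzyme parted here, Farsa shifting down and Farsb up. Of the 13 pairs of counterparts 9 shifted in the same direction and 4 in opposite directions. The 9 include Lars with Lars2, a pair that is opposed with the second Lars2 probe set. The opposite pairs were Cars up with Cars2 down, Eprs up with Ears2 down, Tars up with Tars2 down, and Yars down with Yars2 up. Hars and its neighbour Hars2 both shifted up, by 2.23 ± 0.32 and 1.17 ± 0.34.

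The changes lay mostly in the monosomal pool. From control to TGFβ the 34 members changed by a median size of 1.26 in the monosomal pool of NMuMG (22 of them by more than 1), by 0.38 in the polysomal pool (2 of them by more than 1) and by 0.14 in total RNA (0 of them). Over all probe sets the same medians were 0.80, 0.30 and 0.15. These are differences of means with no test. When total RNA replaced the monosomal pool, 4 members passed in NMuMG in place of 33. They were Rars (1.22 ± 0.21) in the upward direction and Sars (-0.42 ± 0.13), Wars (-0.92 ± 0.15) and Fars2 (-0.92 ± 0.16) in the downward direction. The untreated NMuMG monosomal arrays, the 2 with the high Gapdh 3′ to 5′ difference, enter the first measure and not the second, and the part of that difference in the result was not tested.

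In E1KD cells the shift was smaller and mostly upward. It passed for 20 members, 17 higher (11 cytosolic, 6 mitochondrial) and 3 lower (Vars, Vars2 and Pars2), beside 20.9% of all probe sets called higher and 7.73% lower. The cytosolic median was 0.72 and the mitochondrial median 0.15, beside 0.08 over all probe sets. Tars led with 1.45 ± 0.26, its monosomal values going from 10.82 and 10.86 to 9.37 and 9.08 and its polysomal values from 11.77 and 11.89 to 11.60 and 11.72. Nars2 (1.26 ± 0.32), Iars2 (1.18 ± 0.36), Hars (1.15 ± 0.32), Nars (1.14 ± 0.18) and Rars (1.01 ± 0.21) followed, and Vars2 was lowest at -1.04 ± 0.22. As for Tars, the monosomal pool carried most of the change, with a median size of 0.81 for the cytosolic members beside 0.17 in the polysomal pool.

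The count for E1KD depended on single arrays and on the reference. It was 11 without the second TGFβ-treated polysomal array, and 13 without the first TGFβ-treated monosomal or the first untreated polysomal array. With quantile normalization it was 11 higher and 6 lower. Against total RNA 5 members passed, with Wars (1.28 ± 0.15), Wars2 (0.97 ± 0.17), Sars (0.61 ± 0.13) and Yars (0.53 ± 0.16) higher and Mars (-0.74 ± 0.19) lower. These 5 had also changed in total RNA of E1KD, each in the opposite direction, and both measures use those total RNA arrays, while in the polysomal pool Wars went from 10.07 and 10.11 to 9.96 and 10.12.

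**Figure D4:**
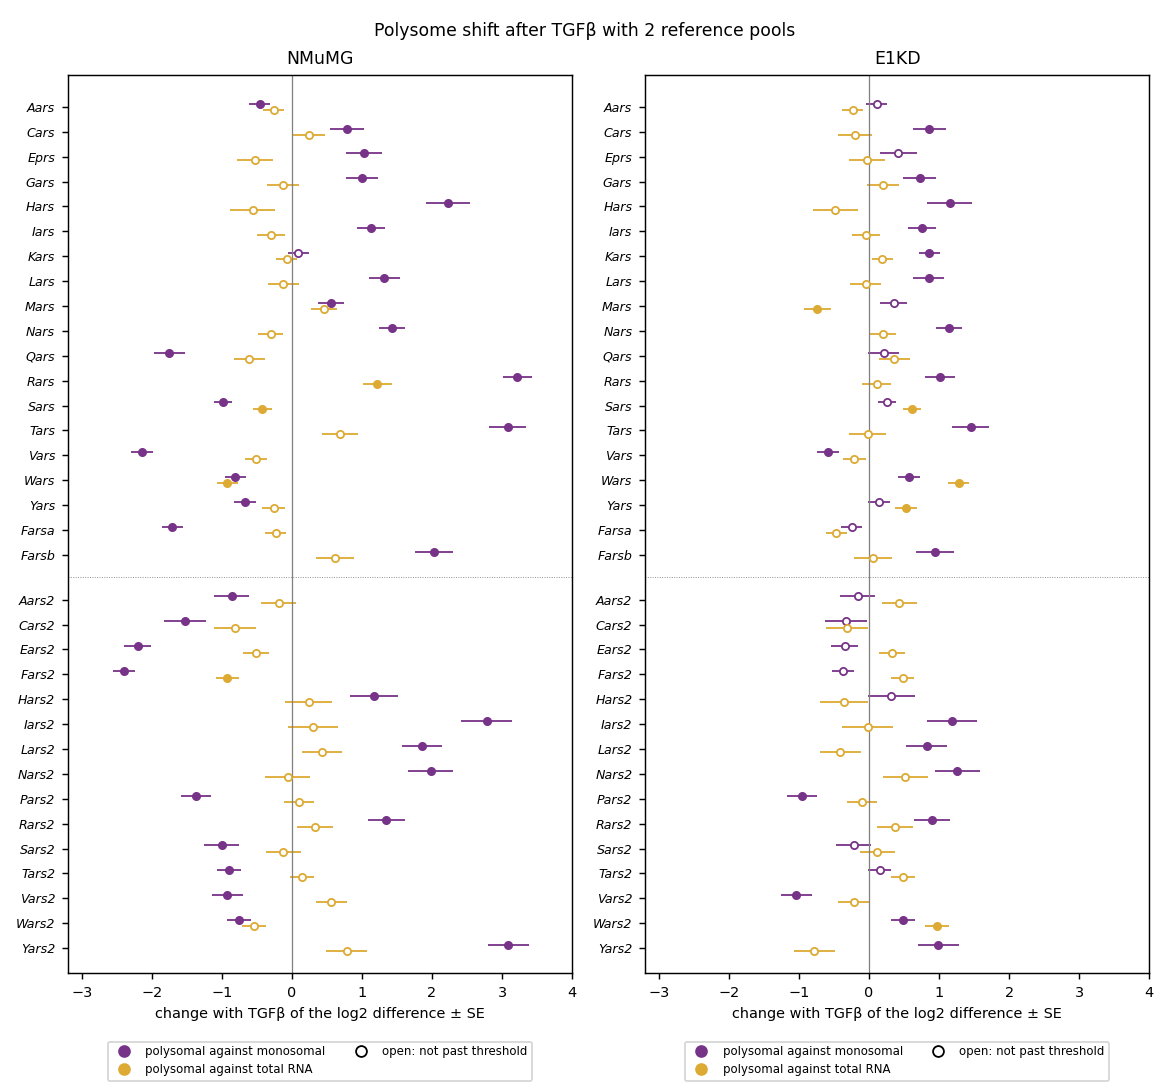
Change with TGFβ of the log2 difference between the polysomal pool and its reference, ± SE, for the 34 tested synthetases in NMuMG (left) and E1KD (right). Purple points use the monosomal pool as reference and yellow points use total RNA, and filled points passed the adjusted threshold. In NMuMG 33 purple points and 4 yellow points are filled, and in E1KD 20 and 5.

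The shifts of the 2 lines were compared with an interaction term. It passed for 18 members, 13 higher in E1KD (8 cytosolic, 5 mitochondrial) and 5 lower (3 and 2), beside 13.1% of all probe sets called higher and 23.5% lower. With quantile normalization 15 were higher and 3 lower, and without the second TGFβ-treated NMuMG monosomal array 11 were higher and 13 lower. The 5 that shifted less upward in E1KD were Rars (-2.21 ± 0.30), Yars2 (-2.10 ± 0.40), Tars (-1.63 ± 0.37), Iars2 (-1.61 ± 0.51) and Farsb (-1.10 ± 0.38). At the other end stood Fars2 (2.03 ± 0.23), Qars (1.95 ± 0.31), Ears2 (1.85 ± 0.27), Vars (1.55 ± 0.23) and Farsa (1.46 ± 0.22), whose shift in NMuMG was below 0. Wars differed by 1.37 ± 0.22. Kars, which did not pass in NMuMG, differed by 0.77 ± 0.22. Against total RNA 9 members passed, with Wars at 2.20 ± 0.22 having the largest value.

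The other lists are read beside the shares of all probe sets, 40.1% up and 30.3% down in NMuMG and 20.9% up and 7.73% down in E1KD. In NMuMG 13 of 16 tested partners of tRNA charging went up and 2 down, 3 of 4 eIF2α kinases went up, and 11 of 18 genes of the ATF4 list went down and 3 up. In E1KD 6 of the 16 partners, 1 of the 4 kinases and 6 of the 18 ATF4 genes went up, with 1 ATF4 gene down. None of these counts was tested against those shares.

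Most synthetase mRNAs read higher in the α-hnRNP E1 than in the IgG immunoprecipitates. As with the pools, the arrays were normalized to a common scale. A value therefore describes the make-up of an immunoprecipitate and not the amount recovered. Over 4 arrays each, 15 of 19 cytosolic and 9 of 15 mitochondrial members were higher and 1, Qars, was lower, against 14% of all probe sets called higher and 11.7% lower. The medians were 0.41 for the cytosolic and 0.44 for the mitochondrial enzymes, beside -0.01 over all probe sets. All but Qars had values above 0, though for 9 members, from Eprs at 0.03 ± 0.12 to Vars2 at 0.44 ± 0.18, the test was not passed.

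Aars had the largest value. It read 10.56, 10.68, 10.63 and 10.68 with IgG and 11.71, 11.84, 12.16 and 11.68 with α-hnRNP E1, a difference of 1.21 ± 0.12 or 2.31-fold (adjusted p = 0.00138). Lars read 11.24, 11.32, 11.25 and 11.15 with IgG and 12.31, 12.42, 12.55 and 12.22 with α-hnRNP E1 (1.14 ± 0.10, adjusted p = 0.00114). Yars read 8.03, 8.05, 8.07 and 8.03 against 8.90, 9.08, 9.18 and 8.90 (0.97 ± 0.09). In all 3 the antibody groups were separated by far more than the spread within them. Tars followed with 0.78 ± 0.07 and Ears2, the highest mitochondrial member, with 0.75 ± 0.10. Rars2 (0.58 ± 0.08), Gars (0.54 ± 0.08), Pars2 (0.53 ± 0.10) and Tars2 (0.52 ± 0.10) formed the next group.

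Qars read 11.38, 11.28, 11.37 and 11.54 with IgG and 10.99, 10.73, 10.65 and 10.84 with the antibody (-0.59 ± 0.10, adjusted p = 0.00551). Its groups did not overlap either. It was also the 1 enzyme of the multisynthetase complex against the direction of the others, of which 5 of the remaining 6 were higher. The 3 scaffolds of that complex gave -0.14 to -0.22 and did not pass. Hars and Hars2 both passed, with values of 0.44 ± 0.09 and 0.44 ± 0.07. Of the 13 pairs of counterparts 7 were higher for both enzymes, and no pair was opposed.

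The 5 members with a TGATGNAA match all passed as higher, and among the 7 tested cytosolic members without one 4 were higher and 1 lower. Members that were higher in untreated E1KD cells were counted against the immunoprecipitation, which used other arrays. Of those 11 members 10 were higher with the antibody, all but Eprs, and of the other 23 members 14 were, so the 10 are 10 of 24. The same overlap was not counted over all genes, so whether it is particular to the members is not known. Among the lists, 7 of 13 enzymes of amino acid synthesis were higher and 0 lower, led by Mthfd2 (1.06 ± 0.14) and Shmt2 (1.03 ± 0.18). The ATF4 list was split, with 5 of 18 higher, among them Chac1 (1.35 ± 0.14) and Trib3 (1.06 ± 0.09), and 3 lower. Transporters were 2 of 12 higher and 2 lower, and of the tRNA charging partners 3 of 16 were higher and 0 lower. The list counts stand beside 14% of all probe sets called higher and 11.7% lower, and were not tested against those shares.

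The Gapdh 3′ to 5′ difference ran from 0.05 to 0.23 in the α-hnRNP E1 arrays and from -0.03 to 0.00 in the IgG arrays, and its part in these values was not tested. For Actb the difference overlapped between the antibodies, at 0.39 to 0.64 and 0.43 to 0.53. The count of 25 fell to 12 without either untreated IgG array, to 16 without the first and 15 without the second TGFβ-treated IgG array, and to 19 with the replicate number as a block. Aars, Lars, Yars and Tars passed in each of these. Exchanging the second replicates left the values as they were and gave 29 higher and 1 lower.

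**Figure D5:**
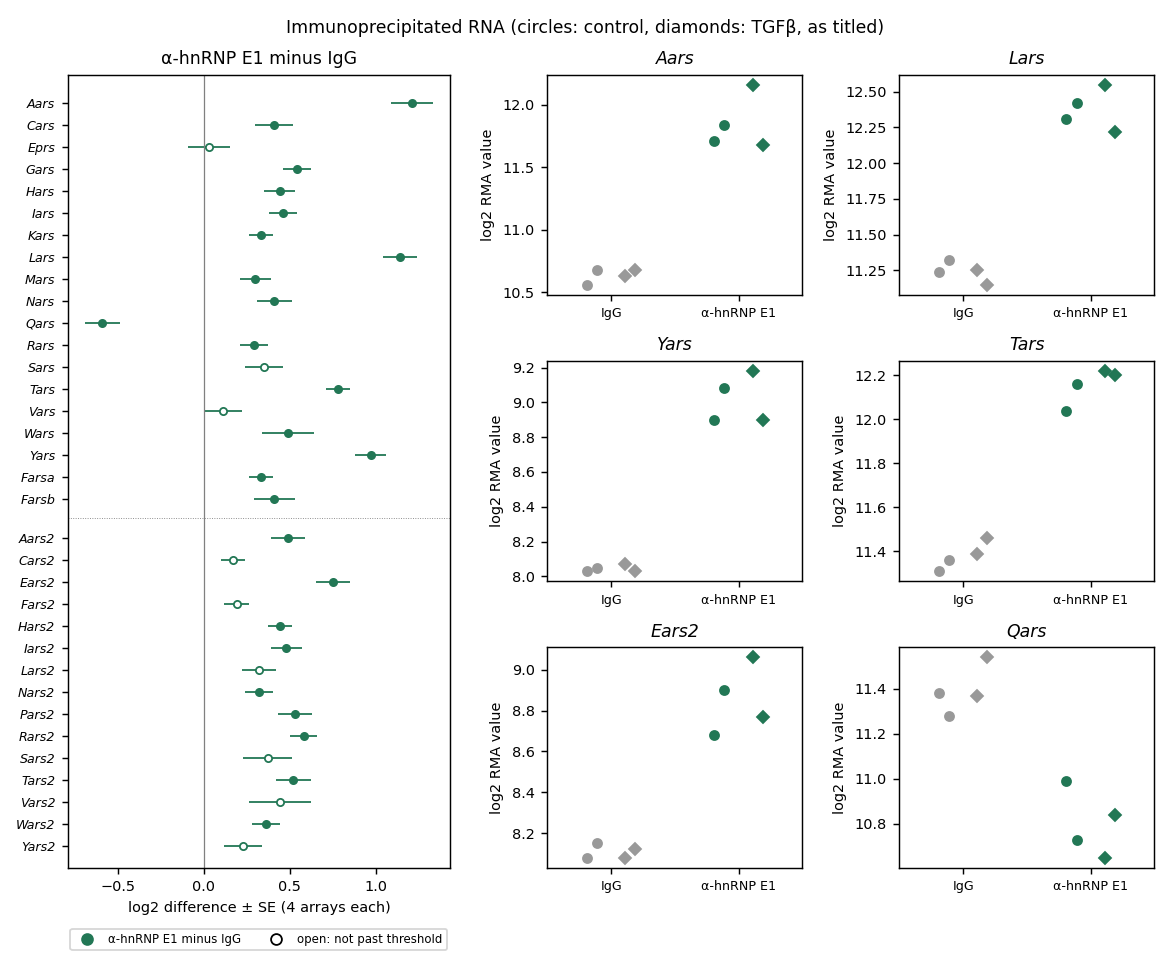
Left, the log2 difference between α-hnRNP E1 and IgG immunoprecipitates ± SE for the 34 tested synthetases, with 4 arrays on each side, filled where the adjusted threshold was passed. Right, the values of 6 members by array, with circles for control and diamonds for TGFβ as titled. The 4 α-hnRNP E1 arrays lie above the 4 IgG arrays for Aars, Lars, Yars, Tars and Ears2 and below them for Qars.

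No synthetase differed detectably between control and TGFβ within either antibody. With the titles as given, 0 of 34 members passed with α-hnRNP E1, where 0 members had an unadjusted p under 0.05 and 0% of all probe sets were called higher or lower. The values ran from -0.33 (Sars2) to 0.15 (Hars). With IgG 0 of 34 passed, 1 member had an unadjusted p under 0.05, and 0% of all probe sets were called higher and 0.00393% lower. With the second replicates exchanged, 4 members were lower in control than with TGFβ and 0 higher, beside 6.09% and 8.60% of all probe sets. They were Vars2 (-0.62 ± 0.10), Wars (-0.51 ± 0.09), Eprs (-0.36 ± 0.10) and Sars (-0.32 ± 0.09). Wars read 9.15, 9.65, 9.78 and 9.27 in the 4 α-hnRNP E1 arrays, in the order of control and TGFβ as titled. The exchange groups 9.15 with 9.27 and 9.65 with 9.78. The gap between arrays titled alike is thus the exchanged difference itself and no separate measure of spread. The labels do not settle which grouping holds.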

How the data were processed

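The authors hybridized each of the 32 samples to an Affymetrix mouse genome array, and the deposited log2 values were made by them with RMA in Affymetrix Expression Console. Arrays give no read depth, and the 2 arrays per group limit the precision. Groups follow the labels. From these values, 64 control probe sets were left out and 25432 of 45101 probe sets were kept, those exceeding the overall median (5.52) on 8 or more arrays. Genes were named from the platform's annotation, in which 34945 probe sets had 1 symbol, 932 had several and 9160 had none. limma 3.58.1 in R 4.3.3 was fitted to the 24 fraction and total RNA arrays (12 residual degrees of freedom) and to the 8 immunoprecipitation arrays (4), with Benjamini-Hochberg adjustment over all kept probe sets and a threshold of 0.05. The fits were tested on simulated data.

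The members and lists were chosen with earlier results of these data known. Any member could be named. The text gives values for the 6 largest changes past the threshold in each direction, members against their group's direction, parted counterparts and Hars with Hars2, and up to 4 genes per direction of other lists. The chosen probe sets of 6 members (Aars, Iars, Qars, Sars, Wars and Farsb) end in _s_at or _x_at and may bind related transcripts. The values given for these 6 carry that limit. Alternatives covered filters, scaling, probe set choice, the samples fitted, the replicate block and each array left out. Centring used the 3′ control probe sets of Actb and Gapdh. One promoter sequence is not reported here.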

Additional observations from a re-analysis of the deposited data

Results flagged for a closer look

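Members whose change with TGFβ differed between E1KD and NMuMG by an interaction test (limma, adjusted over all probe sets) are given as E1KD minus NMuMG on the log2 scale. In total RNA these were Wars (-1.20), Yars (-0.59) and Sars (-0.51).

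In the polysome shift the value was below 0 for Rars (-2.21), Yars2 (-2.10), Tars (-1.63), Iars2 (-1.61) and Farsb (-1.10), whose shift was above 0 in both lines. It was above 0 for Fars2 (2.03), Qars (1.95), Ears2 (1.85), Vars (1.55), Farsa (1.46), Wars (1.37), Sars (1.24), Wars2 (1.22), Cars2 (1.19), Tars2 (1.05), Yars (0.81), Kars (0.77) and Aars (0.57). With 2 arrays in each group, single arrays were not tested for standing apart from their group.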

How the results depend on the processing

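Counts are of the 34 members past the threshold. For the TGFβ response of E1KD minus NMuMG in total RNA the count of 3 became 1 without the filter on low values, 15 with the compared arrays fitted alone, 6 with an intensity trend, 8 with quantile normalization, 7 after scaling to Actb and Gapdh and 6 with the mean over a gene's probe sets. TGFβ in E1KD went from 9 to 18 with the compared arrays fitted alone. With total RNA in place of the monosomal pool the polysome shift went from 33 to 4 in NMuMG, from 20 to 5 in E1KD and from 18 to 9 for their difference. Only the 4 largest values of each contrast were checked for reversal by setting. With total RNA as the reference 4 of these reversed, all in E1KD. They were the polysomal difference of Farsa (0.69) and the shifts of Tars (-0.02), Iars2 (-0.02) and Hars (-0.48). Smaller values reversed as well. Among them were the polysomal differences of Tars (-0.67 ± 0.19) and Iars (-0.78 ± 0.14) in untreated E1KD. The Hars shift in NMuMG (-0.56 ± 0.32, not passed) was another. Exchanging the second α-hnRNP E1 replicates gave 4 in place of 0 for control minus TGFβ, and fitting the compared arrays alone gave 1 in place of 0 for IgG. The causes of these moves were not tested. Leaving out each array gave 0 to 0 for TGFβ in NMuMG, 7 to 8 for TGFβ in E1KD, 8 to 9 for E1KD minus NMuMG, 1 to 2 for the difference of the responses, 20 to 22 and 15 to 19 for polysomal minus monosomal in NMuMG and E1KD, 31 to 33 and 11 to 18 for their shifts, 15 to 24 for the shift difference, 12 to 28 for α-hnRNP E1 minus IgG and 0 to 0 for both treatment contrasts. Fits that leave out an array assume that its lone partner varies like the other groups.

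Quantile normalization moved the median of all probe sets by 0.19 for polysomal minus monosomal in NMuMG and by -0.15 for the NMuMG shift. Scaling to Actb and Gapdh moved it by 0.23 for polysomal minus monosomal in NMuMG, -0.12 for TGFβ in E1KD, -0.18 for the response difference and 0.12 for the E1KD shift. Deviations of same-numbered replicates had correlations from -0.38 to 0.32 in the fractions and -0.59 to 0.08 in the immunoprecipitates. Whether the numbers pair the arrays cannot be told from these values, and the main fits used no pairing. With the replicate block α-hnRNP E1 minus IgG had 19 members in place of 25, and the other counts moved by at most 1. The choice of probe set mattered for Qars and Lars2. Arrays limit these results through their number and through signal shared between related transcripts.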
